A study of Oryza sativa Indica Group with 36 samples.

Results

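The 150 genes described here had lower transcript levels in the cold groups of a rice RNA-seq series than in its other groups. They were selected on the measured values. FPKM (the count of a gene over its length and over the library total) was averaged over the 3 libraries of each of the 12 groups, and each annotated gene was scored by log2 of the lowest mean of the 8 groups outside the cold plus 1 over the highest mean of the 4 groups in the cold plus 1. The 150 highest scores were kept, out of 3300 annotated genes with a score above 0, 40745 annotated genes and 43254 genes in all. The score ran from 1.36 to 3.89 with a median of 1.60, so that the lowest group outside the cold exceeded the highest group in the cold by 2.57-fold to 14.8-fold on the scale of FPKM plus 1, at the median by 3.04-fold. The lower level in the cold is therefore what chose the members, and it is given as a description with no test.

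The series compared 2 near-isogenic rice lines, 9311 (WT in the labels) and DC907 (NIL), the latter carrying a cold tolerance locus of wild rice in the 9311 background. RNA came from the aerial parts, stems and leaves together, of hydroponic seedlings at the four-leaf stage, with 3 biological replicates per treatment. The groups of 9311 were ACK without cold, AT1 and AT3 after 1 and 3 days at 8 ℃, and AT1H1 and AT3H1 after 1 further day of recovery at normal temperature. Those of DC907 were BCK without cold, BT1 and BT3 after 1 and 3 days at 8 ℃, BT1H1 and BT3H1 after 1 day of recovery, and BT1H3 and BT3H3 after 3 days of recovery. All plants shared the growth medium and the 9311 background, and the labels name no single plants, so what a biological replicate holds is not stated further.

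Rice is a tropical plant and is sensitive to chilling, which slows growth, photosynthesis and protein synthesis in its shoots. Plants in the cold shift the abundance of many transcripts within hours, through changes in both transcription and RNA decay, and part of these shifts is undone when the plants are warmed again. FPKM measures a share of the RNA of a sample, and in aerial parts taken whole, fewer cells of a type and less RNA per cell cannot be told apart. The tables give the members as BGIOSGA identifiers without gene names, and the reference table of gene names matched none of them, so no function is stated for a member.

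The libraries held 10176660 to 18789555 counts on genes, and every library but BT1 replicate 3, the lowest, held at least 14412904. The 6 libraries labelled AT3 and AT3H1 did not follow their cultivar label. Of 78 genes that separated the 9 libraries of ACK, AT1 and AT1H1 from the 9 of BCK, BT1 and BT1H1, these 6 libraries lay on the side of DC907 for 82.1% to 96.2%, against at most 5.13% in the libraries of ACK, AT1 and AT1H1 and at least 92.3% in those of DC907. None of the members was among these 78 genes (0 of 150). The selection all but fixed this, since such a gene needs AT1 above BCK or BT1 above ACK. It therefore says nothing about cultivar differences in the members. The 2 groups are written below as the libraries labelled AT3 and AT3H1. No tested comparison is made of them, but they are part of the alternative fit that held all 36 libraries. When both groups were left out, 96 of the 150 members were also selected.

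As one sum, the members stood in the cold at a small part of their level in the controls, and in most recovery libraries at or above that level. The summed FPKM of the 150 members was 8320, 14925 and 14975 in ACK and 18749, 15299 and 11270 in BCK. In the cold it was 1428 to 2024 in AT1, 1856 to 2402 in BT1 and 1763 to 2913 in BT3, and for the libraries labelled AT3 it was 1645 to 1814. After 1 day of recovery it was 19829 to 26071 in AT1H1, 18171 to 23126 in BT1H1, 19136 to 20288 in BT3H1 and 13351 to 29740 in the libraries labelled AT3H1. After 3 days it was 18146 to 21080 in BT1H3 and 25904 to 27454 in BT3H3. The 12 libraries in the cold did not overlap the 24 others in this sum, which the selection made likely, and the 3 libraries of BT3H3 lay above all libraries of BCK, BT1H1, BT1H3 and BT3H1. The 5 members with the highest levels held 36.5% to 48.4% of the sum of a group, so that the sum speaks largely for them.

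**Figure D1:**
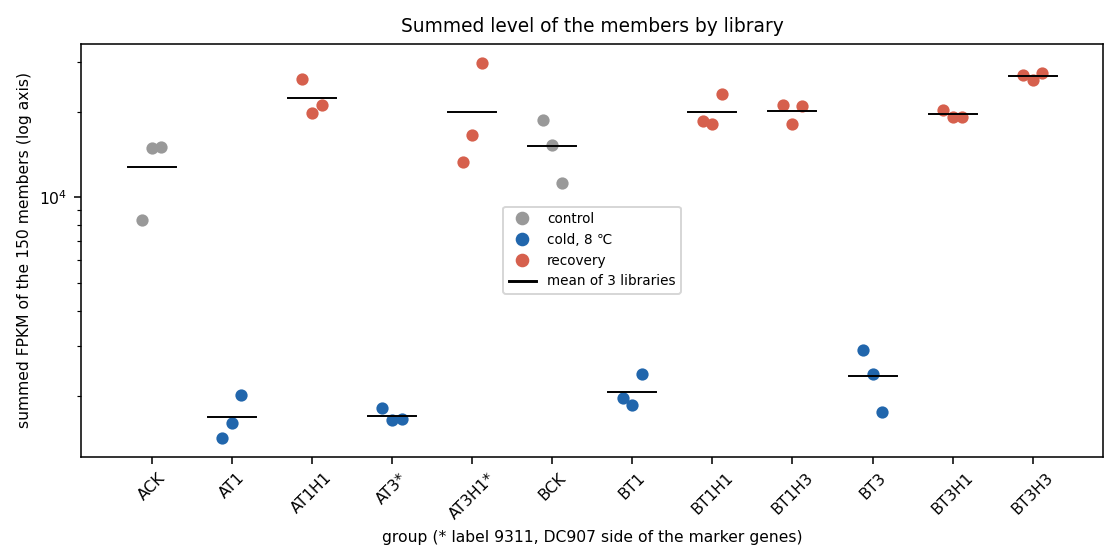
Summed FPKM of the 150 members in each of the 36 libraries (points, log axis) with the mean of the 3 libraries of each group (line), in grey for the controls, blue for the cold and red for recovery. The libraries in the cold reach at most 2913 and the others start at 8320, in ACK replicate 1.

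The median FPKM over the members was 21.6 in ACK and 24.6 in BCK, and 2.57 in AT1, 2.67 in the libraries labelled AT3, 3.55 in BT1 and 3.55 in BT3. For comparison, annotated genes that reached an FPKM of 1 in the mean of any group had a median of 10.8 in ACK and 9.60 in BCK. Relative to the control of the same label, the median member stood at 11.3% in AT1, 12.3% in the libraries labelled AT3, 14.5% in BT1 and 14.3% in BT3, and no member exceeded 37.9% in any of these groups. On the scale of log2(FPKM + 1) the median ratio to the control was -2.56 in AT1, -2.55 in AT3, -2.38 in BT1 and -2.34 in BT3, where the median over all genes was -0.54, -0.03, -0.16 and -0.10. Of the 150 members, 38 had a mean FPKM below 1 in AT1, 34 in AT3, 31 in BT1 and 22 in BT3, and none had one outside the cold. Over the 4 groups in the cold together, the mean of the other 8 groups exceeded the mean of the cold by 4.07-fold to 549-fold, with a median of 11.2-fold and 86 members above 10-fold.

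Library by library the separation was less complete than by group mean. For 88 of the 150 members all 12 libraries in the cold lay below all 24 others, against 1.41% of the 26526 genes that reached an FPKM of 1 as a group mean. The remaining 62 members overlapped in at least 1 library. Over all 150 members, the lowest values outside the cold lay mostly in a few libraries. AT3H1 replicate 1 was the lowest of the 24 libraries for 81 members, ACK replicate 1 for 33 and BCK replicate 1 for 15, while each of the other 21 libraries was lowest for at most 3. The count of members without overlap rose to 145 when replicate 1 of every group was left out. This also removed replicate 1 of the groups in the cold and left fewer libraries that could overlap. Among the libraries in the cold, BT3 replicate 1 held the highest value for 33 members and BT3 replicate 2 for 24.

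**Figure D2:**
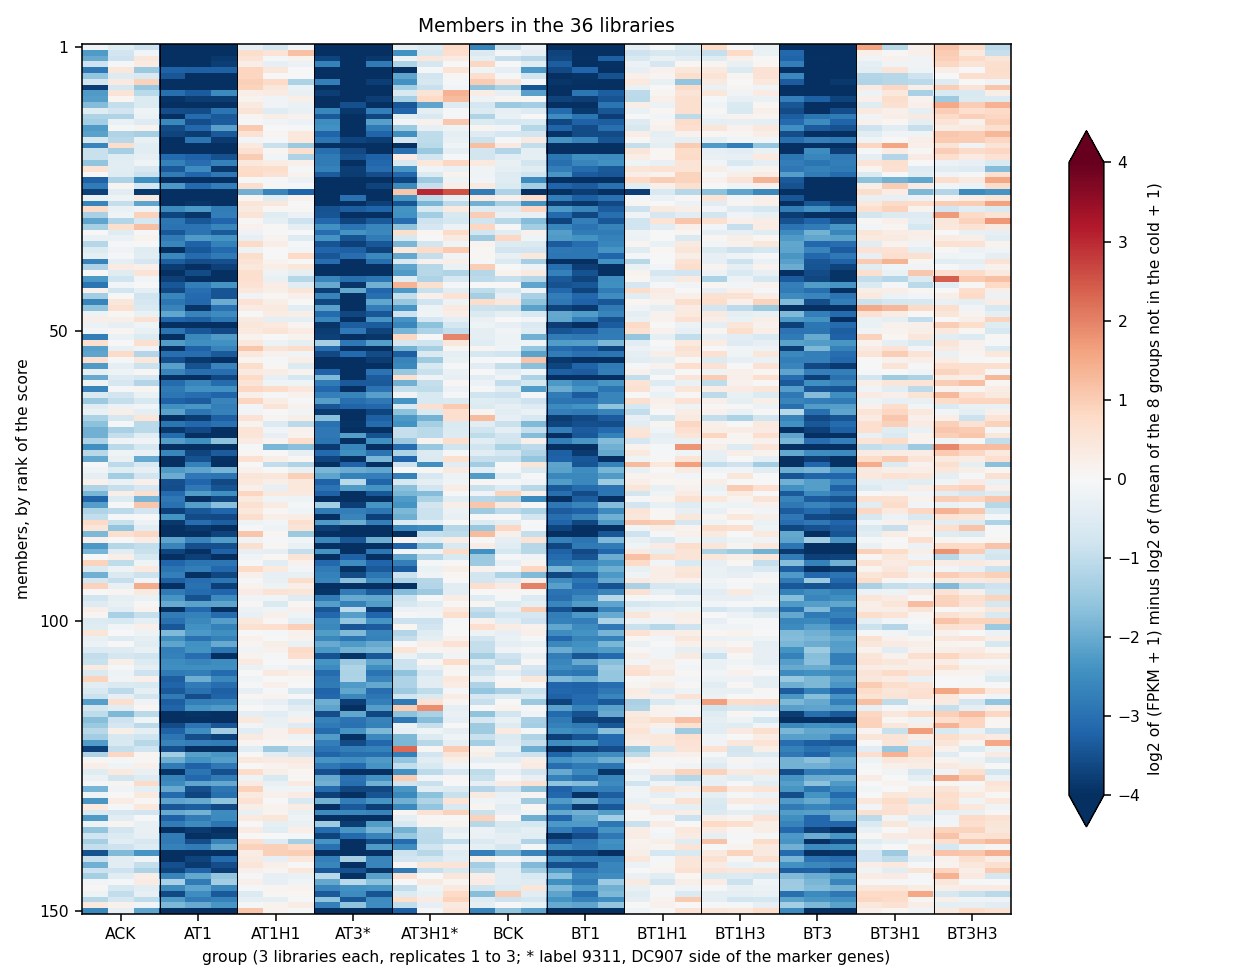
The 150 members (lines, in the order of the score) in the 36 libraries (columns, 3 per group). Colour gives log2(FPKM + 1) minus log2 of the mean of the 8 groups outside the cold plus 1, blue for lower and red for higher, and the 4 groups in the cold form blue blocks while AT3H1 replicate 1, the lowest of the 24 other libraries for 81 members, has a pale blue column.

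The limits of the score were set by different groups. The highest mean in the cold, which counts against the score, was in BT3 for 63 members, in BT1 for 40, in AT3 for 34 and in AT1 for 13. The lowest of all 12 means was in AT3 for 60 members and in AT1 for 57, and in BT1 for 17 and BT3 for 16. Outside the cold the lowest mean was in AT3H1 for 53 members, ACK for 34, BCK for 29, BT1H3 for 12, BT1H1, BT3H1 and BT3H3 for 7 each and AT1H1 for 1. The highest mean of all was in BT3H3 for 65 members and in BT3H1 for 30, and in a control for only 10 (BCK 6, ACK 4). The gene lengths of the members, with a median of 987 bases and quartiles of 588 and 1451, lay close to those of annotated genes with an FPKM of at least 1 (median 1053, quartiles 615 and 1596).

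The levels of single members are given below in FPKM, in the order of replicates 1, 2 and 3. BGIOSGA013150 had the highest score (3.89). Its FPKM was 121, 98.5 and 77.2 in ACK, and 20.7, 74.9 and 113 in BCK. In the cold it was 0, 1.53 and 0 in AT1, 0.859, 1.21 and 0 in AT3, 2.72, 1.58 and 0.315 in BT1, and 1.91, 4.97 and 4.44 in BT3. In recovery it was 108, 85.6 and 126 in AT1H1, 104, 94.8 and 232 in AT3H1, 104, 129.8 and 93.1 in BT1H1, 229, 137 and 111 in BT1H3, 408, 63.2 and 157 in BT3H1, and 303, 227 and 65.3 in BT3H3. All 12 libraries in the cold were below 5.0 and all others above 20, and the 3 libraries differed by several-fold within BT3H1 and within BT3H3. BGIOSGA018410 came second (3.03), with 5.09, 16.3 and 26.1 in ACK, 0.581, 0.432 and 0.764 in AT1, and 46.0, 41.6 and 64.8 in AT1H1 in 9311. In DC907 it had 18.4, 26.4 and 22.0 in BCK, 1.24, 0.745 and 0.119 in BT1, and 15.6, 17.7 and 17.2 in BT1H1. It had 2.31, 0.432 and 0.436 in BT3, and 57.9, 37.2 and 14.3 in BT3H3. The libraries in the cold did not overlap the others, and AT1H1 lay above ACK in each library whereas BT1H1 lay below BCK in each.

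BGIOSGA013792 (2.80) had an FPKM of 0.217 to 3.77 in the 12 libraries in the cold and of 9.77 to 83.5 in the 24 others, whose median was 39.1. Of the 10 highest scores, BGIOSGA002104 and BGIOSGA019679 were also strongly expressed outside the cold. BGIOSGA002104 (2.70) had 426, 729 and 939.9 in ACK, 15.3, 32.3 and 53.9 in AT1, and 114, 14.5 and 105 in AT3. In DC907 it had 1343, 759.9 and 540.3 in BCK, 75.3, 43.7 and 47.6 in BT1, and 109, 36.1 and 42.9 in BT3. BGIOSGA019679 (2.52) had 4747, 2831 and 1692 in BCK, 72.1, 193 and 265 in BT1, 490.2, 110.5 and 155 in BT3, 1327, 1356 and 1669 in BT3H1, and 2921, 4683 and 4712 in BT3H3. Neither gene had a library in the cold as high as its lowest library outside it, and BGIOSGA019679 was lower in BT3H1 than in BCK, BT1H1, BT1H3 and BT3H3, library by library.

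BGIOSGA038077 (2.56) is a member in which the libraries overlapped, since AT3H1 replicate 1 had 22 and the libraries in the cold had 1.59 to 44.9. Its values were 42.7, 42.2 and 42.1 in AT1, 32.9, 44.9 and 22.6 in BT1, 6.18, 1.59 and 10.3 in AT3, and 11.3, 4.66 and 4.87 in BT3. The groups after 3 days lay below those after 1 day in every library. BGIOSGA007888 (2.49) had 0.274 to 9.19 in the cold and 11.7 to 135 outside it, and BGIOSGA034508 (2.45) had 0.0678 to 0.837 and 1.34 to 67.4. BGIOSGA034508 was low in the controls, with 1.34, 18.5 and 10.01 in ACK, and 9.28, 12.1 and 1.89 in BCK, and reached 39.2, 54.9 and 36.4 in BT3H1, and 61.6, 44.3 and 67.4 in BT3H3. All 6 control libraries of this gene lay below all recovery libraries of DC907. BGIOSGA030112 (2.41) had 0.917 to 27.5 in the cold and 33.8 to 438 outside, and BGIOSGA032434 (2.38) had 0.0553 to 2.52 and 4.06 to 54.9.

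The 5 members with the highest mean outside the cold were BGIOSGA019679, BGIOSGA036882, BGIOSGA016012, BGIOSGA018258 and BGIOSGA022009. BGIOSGA036882 had 416, 2358 and 1917 in ACK, and 2159, 2455 and 752 in BCK. It had 59.4 to 700.3 in the cold and was highest in AT3H1 replicate 3 with 11000. BGIOSGA016012 had 766, 442 and 475 in BCK, 40.4, 40.2 and 163 in BT1, 113, 29.8 and 65.4 in BT3, 879, 1887 and 1417 in BT3H1, and 3537, 2400 and 3245 in BT3H3. Its BT3H3 libraries lay above all other libraries of the gene. BGIOSGA018258 had 58.3 to 473 in the cold and 583 to 1828 outside, and BGIOSGA022009 had 5.82 to 148 and 101 to 1634. The fold of the 8 groups over the 4 in the cold was 17.5 for BGIOSGA019679, 7.96 for BGIOSGA036882, 22.5 for BGIOSGA016012, 6.23 for BGIOSGA018258 and 16.9 for BGIOSGA022009. All 12 libraries in the cold lay below the 24 others for BGIOSGA019679 and BGIOSGA018258, and the other 3 overlapped.

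Near the limit of the selection, the 3 members just inside were BGIOSGA000328, BGIOSGA022904 and BGIOSGA022230 and the 3 genes just outside were BGIOSGA013734, BGIOSGA020807 and BGIOSGA028000, all with scores of 1.35 to 1.36. BGIOSGA000328 had 6.01 to 23.6 in the cold and 32.9 to 154 outside, BGIOSGA022904 0.75 to 3.56 and 4.94 to 16.4, and BGIOSGA022230 0.278 to 7.33 and 4.15 to 105. Just outside, BGIOSGA013734 had 31.5 to 137 and 114 to 1681, BGIOSGA020807 0.133 to 3.98 and 2.6 to 43.1, and BGIOSGA028000 0 to 1.05 and 1.38 to 12.3. The scores ran on without a gap across the limit of 150.

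Some members reached 0 in the cold. In 17 members at least 1 library in the cold had no count, in up to 5 libraries for a gene, while no member had a count of 0 in a library outside the cold. BGIOSGA032365, named after its values were seen, had 0 counts in all 3 libraries labelled AT3, and 1, 2 and 4 counts in AT1, 0, 6 and 1 in BT1 and 6, 2 and 1 in BT3. ACK had 114, 1852 and 733 counts, which was at least 859-fold higher in mean FPKM than the 3 counts taken as the floor over the group labelled AT3. The libraries labelled AT3H1 had 2, 492 and 935 counts, so replicate 1 of this group was as low as the cold. BGIOSGA035790, also named after its values were seen, had 28.6, 295 and 26.4 in ACK, 55.4, 168 and 14.9 in BCK, and 848, 3224 and 2308 in AT3H1. Its AT3H1 libraries were the 3 highest of all 36.

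Whether the members came back to the control, and whether they passed it, was asked with edgeR's quasi-likelihood test on the counts of all genes. Each recovery group was tested except the libraries labelled AT3H1. A gene was called upregulated or downregulated at a Benjamini-Hochberg adjusted p under 0.05. The rule set a floor under all 8 groups outside the cold, so the members were not free to fall far in any of them, and their counts up and down are read with that limit. The comparisons with BCK share its 3 libraries. In FPKM the median member stood at 148% of the control in AT1H1, 94.2% in the libraries labelled AT3H1, 146% in BT1H1, 130.03% in BT1H3, 153% in BT3H1 and 165% in BT3H3. The deposited FPKM of all genes was itself shifted in these groups, by a median of 0.04, -0.16, 0.31, 0.13, 0.29 and 0.17 in log2(FPKM + 1), while that of the members was 0.53, -0.08, 0.51, 0.37, 0.59 and 0.68. Members above the control numbered 123 in AT1H1 (82.0% against 52.1% of all genes), 69 in AT3H1 (46.0% against 44.0%), 113 in BT1H1 (75.3% against 62.8%), 109 in BT1H3 (72.7% against 56.2%), 120 in BT3H1 (80.0% against 62.4%) and 120 in BT3H3 (80.0% against 56.4%).

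**Figure D3:**
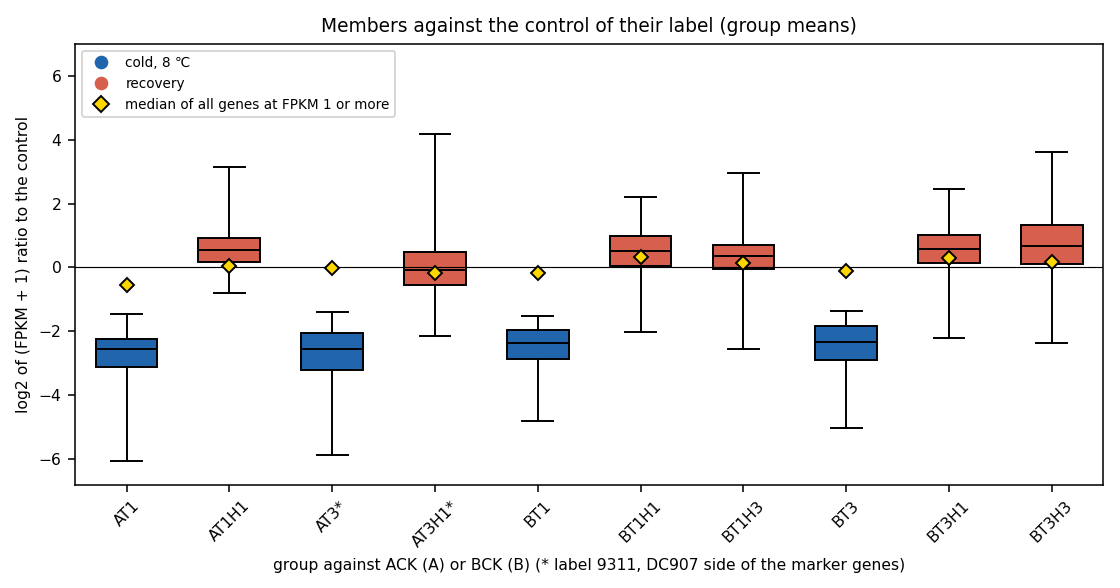
Log2 ratio of FPKM + 1 to the control of the same label for the 150 members, from group means, in 10 groups. Boxes give the quartiles and the median, whiskers the lowest and highest member, diamonds the median of all genes with an FPKM of at least 1, and the members lie at medians of -2.56 to -2.34 in the cold and of -0.08 to 0.68 in recovery.

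After 3 days of recovery from 3 days in the cold, a part of the members was above the control. In BT3H3 against BCK, 31 of the 150 members were upregulated, where 8.38% of all 22613 genes tested were, and 2 were downregulated, where 9.73% of all genes were. The median log2 fold change was 0.44 over the members and -0.04 over all genes. A positive value was found in 107 members (71.3%, against 48.7% of all genes). With all 36 libraries in 1 fit, 28 members were upregulated, against 11.5% of all genes. Leaving out any 1 of BT3H3 replicates 1, 2 and 3 left 0 members called, and 0, 4 and 0 of all genes. The median log2 fold change of the members was then 0.34, 0.46 and 0.46. Without BCK replicate 1, 2 or 3 the upregulated members numbered 25, 16 and 16 (16.7%, 10.7% and 10.7%, against 5.70%, 6.99% and 4.04% of all genes).

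BGIOSGA026332 had the largest increase. It had 101, 178 and 107 in BCK, 397, 251 and 779.8 in BT3H1, and 1496, 1445 and 1861 in BT3H3 (log2 fold change 3.40, SE 0.35, Benjamini-Hochberg adjusted p = 0.015 by edgeR's quasi-likelihood test). The 3 libraries of BT3H3 were above every other library of the gene. BGIOSGA014344 had 9.54, 14.9 and 6.69 in BCK, 52.0, 65.9 and 65.3 in BT3H1, and 77.0, 79.2 and 119 in BT3H3, and it was upregulated in both (in BT3H3 log2 fold change 2.91, SE 0.36, Benjamini-Hochberg adjusted p = 0.016 by edgeR's quasi-likelihood test). The libraries of BCK, BT3H1 and BT3H3 did not overlap each other, and this member also lay higher in each library of AT1H1 than in any of ACK, with 53.9, 53.4 and 38.5 in AT1H1 and 5.38, 19.4 and 8.12 in ACK. BGIOSGA034508, BGIOSGA016012 and BGIOSGA022230, described above, were among the upregulated members, with log2 fold changes of 2.65 (SE 0.63), 2.14 (SE 0.43) and 2.52 (SE 0.29).

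The 2 downregulated members were BGIOSGA022434 and BGIOSGA011822. BGIOSGA022434 had 58.1, 45.7 and 148 in BCK, 14.1, 22.0 and 23.6 in BT1H1, 13.9, 18.2 and 19.97 in BT3H1, and 9.9, 17.3 and 19.7 in BT3H3 (log2 fold change -2.72, SE 0.57, Benjamini-Hochberg adjusted p = 0.028 by edgeR's quasi-likelihood test). Every recovery library of DC907 lay below every library of BCK in this member. BGIOSGA011822 had 14.6, 31.2 and 19.1 in BCK and 11.6, 9.98 and 11.5 in BT3H3 (log2 fold change -1.20, SE 0.26, Benjamini-Hochberg adjusted p = 0.031 by edgeR's quasi-likelihood test). Its 2 groups did not overlap either, by a small margin.

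Fewer members were called after 1 day of recovery from the same cold. In BT3H1 against BCK, 8 members were upregulated (3.54% of all 23155 genes) and 2 downregulated (3.87% of all genes), and the members' median log2 fold change was 0.23, against -0.05 over all genes. BGIOSGA014344 had the largest increase (log2 fold change 2.19, SE 0.30, Benjamini-Hochberg adjusted p = 0.025 by edgeR's quasi-likelihood test). BGIOSGA023183 had 88.8, 85.3 and 35.7 in BCK and 457, 403 and 274 in BT3H1 (log2 fold change 2.02, SE 0.41, Benjamini-Hochberg adjusted p = 0.044 by edgeR's quasi-likelihood test). In this member the BT3H1 libraries were the highest 3 of the 36. The 2 downregulated members were BGIOSGA022434 (log2 fold change -2.70, SE 0.54, Benjamini-Hochberg adjusted p = 0.042 by edgeR's quasi-likelihood test) and BGIOSGA007888, which had 135, 95.8 and 64.4 in BCK and 28.6, 29.8 and 31.4 in BT3H1 (log2 fold change -2.14, SE 0.35, Benjamini-Hochberg adjusted p = 0.033 by edgeR's quasi-likelihood test). Leaving out BT3H1 replicate 1, 2 or 3 left 0 members called, and 0 of all genes. Without BCK replicate 3 there were 3 up and 3 down (0.834% and 1.60% of all genes).

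Between these 2 recovery times a part of the members rose, among them members whose BT3H1 mean lay below that of BCK. In BT3H3 against BT3H1, 26 members were upregulated (4.61% of all 22747 genes) and 3 downregulated (3.76% of all genes), with a median log2 fold change of 0.35 over the members and -0.01 over all genes. BGIOSGA031947 had 29.3, 22.8 and 4.71 in BCK, 9.57, 7.92 and 6.74 in BT3H1, and 52.7, 40.99 and 95.9 in BT3H3 (log2 fold change 3.13, SE 0.38, Benjamini-Hochberg adjusted p = 0.018 by edgeR's quasi-likelihood test). It was also at 56.2, 63.9 and 60.5 in BT1H1 and 36.5, 46.6 and 83.9 in BT1H3, so BT3H1 was the one recovery group of DC907 in which this member was low. BGIOSGA013092 had 30.4, 21.5 and 25.1 in BCK, 26.1, 28.7 and 18.6 in BT3H1, and 202, 127 and 127 in BT3H3 (log2 fold change 2.79, SE 0.24, Benjamini-Hochberg adjusted p = 0.018 by edgeR's quasi-likelihood test). The BT3H3 libraries of this member lay above those of BT3H1 and BCK without overlap. BGIOSGA019679, the member with the highest mean, was also upregulated (log2 fold change 1.65, SE 0.28, Benjamini-Hochberg adjusted p = 0.026 by edgeR's quasi-likelihood test).

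The 3 downregulated members were BGIOSGA022078, BGIOSGA018771 and BGIOSGA022904. BGIOSGA022078 had 45.2, 44.9 and 76.5 in BT3H1, and 16.0, 13.2 and 11.6 in BT3H3 (log2 fold change -1.90, SE 0.29, Benjamini-Hochberg adjusted p = 0.024 by edgeR's quasi-likelihood test). BGIOSGA018771 had 29.8, 35.8 and 20.6 in BT3H1, and 10.5, 13.6 and 12.2 in BT3H3 (log2 fold change -1.08, SE 0.21, Benjamini-Hochberg adjusted p = 0.035 by edgeR's quasi-likelihood test). BGIOSGA022904 had 14.5, 16.4 and 12.9 in BT3H1, and 8.13, 8.35 and 7.68 in BT3H3 (log2 fold change -0.70, SE 0.13, Benjamini-Hochberg adjusted p = 0.034 by edgeR's quasi-likelihood test). In all 3 the libraries of the groups did not overlap. The count depended on which libraries entered. With all 36 libraries in 1 fit only 2 members were upregulated, against 0.962% of all genes, and 1 was downregulated, against 0.448%. Without BT3H1 replicate 1 or 2 or BT3H3 replicate 2 no member was called, where 0.00427%, 0.0645% and 0.00426% of all genes were. Without BT3H3 replicate 1 there was 1 (0.667%, against 0.132% of all genes). Without BT3H1 replicate 3 or BT3H3 replicate 3 there were 19 and 22 (12.7% and 14.7%, against 3.50% and 5.30% of all genes).

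**Figure D4:**
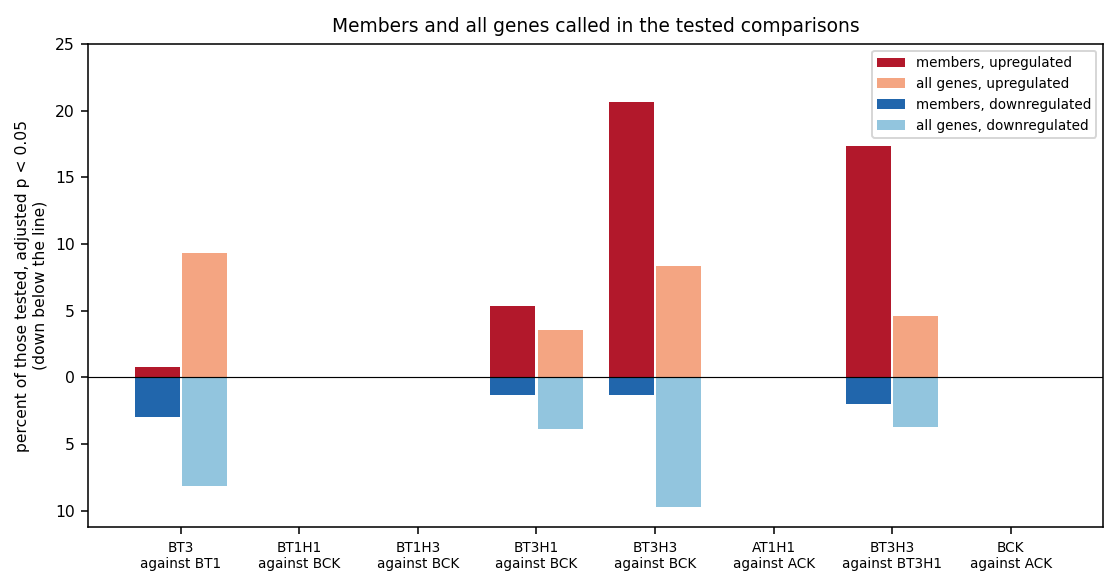
Share of the members and of all genes tested that were upregulated (above the line) or downregulated (below it) in 8 comparisons, by edgeR's quasi-likelihood test at a Benjamini-Hochberg adjusted p under 0.05. In BT3H3 against BCK 20.7% of the members and 8.38% of all genes were upregulated, and in BT3H3 against BT3H1 17.3% and 4.61%.

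No member was called in recovery from 1 day in the cold. In BT1H1 against BCK and in BT1H3 against BCK, 0 members were upregulated and 0 downregulated, and so were 0% of all genes in each direction. At an unadjusted p under 0.05, 34 members differed in BT1H1 and 37 in BT1H3 (22.7% and 24.7%, against 28.2% and 30.4% of all genes). DESeq2 called 13 members up and 6 down in BT1H1, where 7.77% of all genes were up and 11.5% down. In BT1H3 it called 19 up and 5 down, where 8.08% of all genes were up and 12.1% down. In AT1H1 against ACK, 0 members were upregulated or downregulated, where 0.00878% of all genes were up and 0% down. There, 31 members had an unadjusted p under 0.05 (20.7% against 23.97% of all genes), and DESeq2 called 14 up and 0 down, with 5.28% of all genes up and 7.88% down. Without ACK replicate 2, edgeR called 19 members up and 1 down in AT1H1, where 10.6% of all genes were up and 12.2% down. Without BCK replicate 2 it called 8 up and 3 down in BT1H3, where 5.76% of all genes were up and 7.52% down. The median log2 fold change of the members was 0.15 in BT1H1, 0.09 in BT1H3 and 0.42 in AT1H1, against -0.02, -0.10 and -0.07 over all genes. In AT1H1 115 members were positive (76.7%, against 46.2% of all genes). The median in BT1H1 was -0.04 without BT1H1 replicate 3.

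Within the cold, few members were called between 1 and 3 days in DC907. In BT3 against BT1, 133 of the 150 members had enough counts to be tested, and 1 was upregulated, where 9.3% of all 22905 genes were, and 4 were downregulated, where 8.18% were. The other 17 members were removed by the filter on low counts. In the fit of all 36 libraries all 150 members were tested, and 9 were upregulated and 6 downregulated (11.2% and 9.11% of all genes). The members had been chosen for a low highest mean over the groups in the cold, which limits both a rise and a fall from BT1 to BT3.

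The 1 upregulated member, BGIOSGA020776, had 0.512, 0.441 and 0.638 in BT1, and 2.48, 2.91 and 1.68 in BT3 (log2 fold change 2.07, SE 0.45, Benjamini-Hochberg adjusted p = 0.025 by edgeR's quasi-likelihood test). BGIOSGA023183 had 11.3, 10.1 and 21.8 in BT1, and 3.84, 1.92 and 1.58 in BT3 (log2 fold change -2.57, SE 0.57, Benjamini-Hochberg adjusted p = 0.027 by edgeR's quasi-likelihood test). The latter was the member with the largest fall, and as given above it was upregulated in BT3H1 against BCK. BGIOSGA000319 had 6.71, 4.29 and 6.19 in BT1, and 1.84, 0.35 and 0.97 in BT3 (log2 fold change -2.46, SE 0.65, Benjamini-Hochberg adjusted p = 0.043 by edgeR's quasi-likelihood test). BGIOSGA038077 had the values given above (log2 fold change -2.34, SE 0.52, Benjamini-Hochberg adjusted p = 0.028 by edgeR's quasi-likelihood test). BGIOSGA040633 had 3.06, 3.05 and 4.01 in BT1, and 1.2, 1.63 and 1.68 in BT3 (log2 fold change -1.24, SE 0.34, Benjamini-Hochberg adjusted p = 0.046 by edgeR's quasi-likelihood test). In these 5 members the libraries of BT1 and BT3 did not overlap. No member was called without BT1 replicate 1, BT1 replicate 2, BT3 replicate 2 or BT3 replicate 3. Of all genes, 8.82%, 2.77%, 6.18% and 0.915% were called there. Without BT3 replicate 1 there were 4 members (2.99%, against 10.6% of all genes). Without the shallow BT1 replicate 3 there were 9 (6.72%, against 23.0% of all genes).

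**Figure D5:**
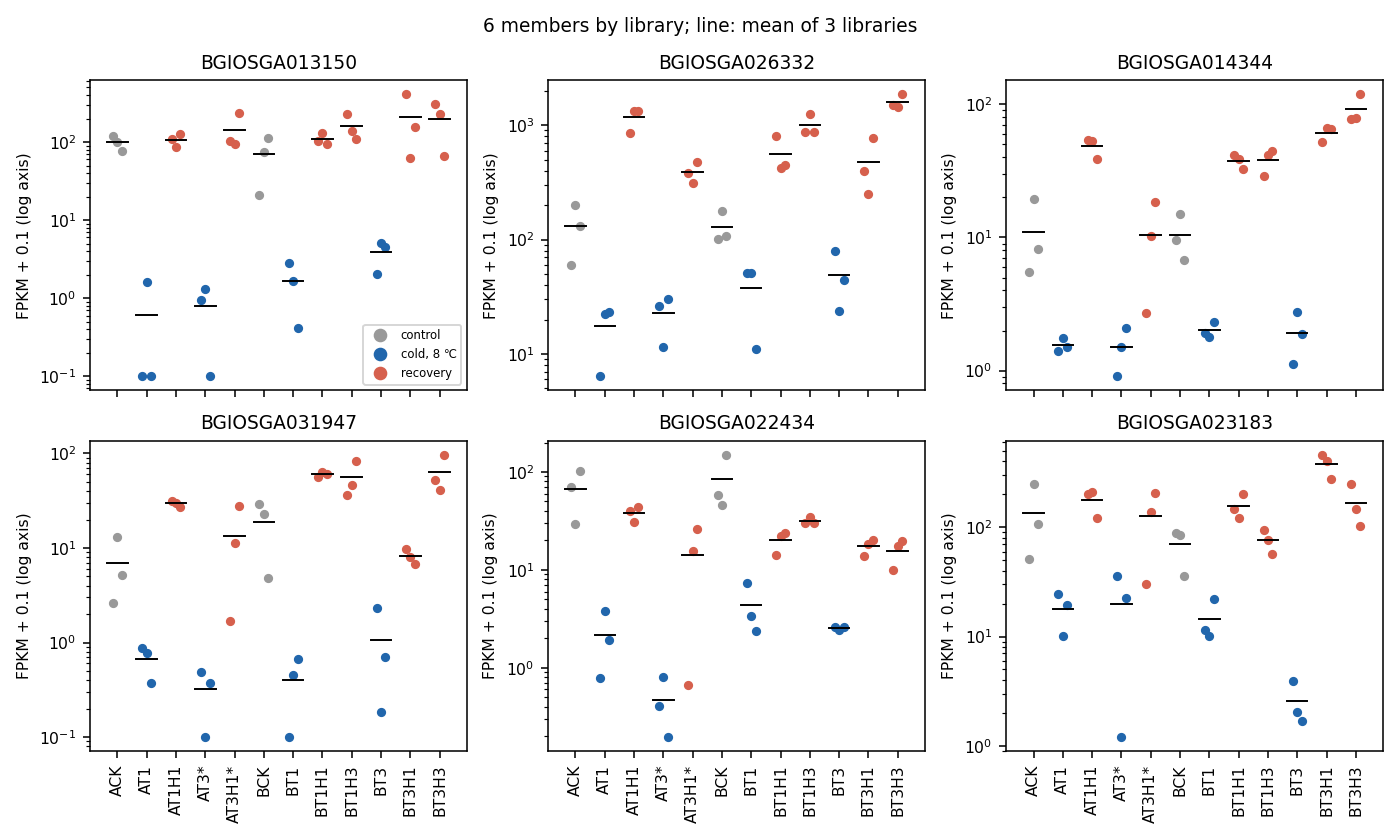
FPKM plus 0.1 (log axis) of 6 members in the 36 libraries, with the mean of the 3 libraries of each group as a line, grey for the controls, blue for the cold and red for recovery. BGIOSGA013150 has the highest score, BGIOSGA026332 and BGIOSGA014344 are highest in BT3H3, BGIOSGA031947 is low in BT3H1, BGIOSGA022434 stays below the control in recovery, and BGIOSGA023183 is lower in BT3 than in BT1.

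The cultivars were compared in the control and in the change to 1 day in the cold, and no member was called in either. In BCK against ACK, 0 members were upregulated and 0 downregulated, where 0.0176% and 0.0263% of all genes were, and the median log2 fold change of the members was 0.12, and -0.04 without BCK replicate 1. At an unadjusted p under 0.05 there were 2 members (1.33%, against 2.15% of all genes). DESeq2 called 0 members there, and 0.664% of all genes. The difference between DC907 and 9311 in the change from control to 1 day in the cold, tested as an interaction in 12 libraries, was called for 0 members in either direction, where 0.00403% and 0% of all genes were called. Its median over the members was -0.05, and between 0.01 and 0.09 without ACK replicate 1, AT1 replicate 1, AT1 replicate 3, BCK replicate 1 or BT1 replicate 2. Of the members, 5 had an unadjusted p under 0.05 in the interaction (3.33%, against 4.23% of all genes). DESeq2 called 0 members in it, and 0.149% of all genes. The rule set a floor under both controls and a cap over both AT1 and BT1, which limits both of these differences in the members. These counts therefore do not show that the cultivars were alike in the members. The cultivars were not compared after 3 days in the cold because of the libraries labelled AT3 and AT3H1.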

How the data were processed

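RNA-seq of 36 libraries (12 groups with 3 replicates) was used. The authors filtered the reads (NGS QC Toolkit), aligned them to the indica genome (HISAT2, Ensembl Plants release 41), and assembled further genes by Cufflinks. Counts were deposited raw. FPKM was deposited too, as the authors' counts over gene length and library total. The counting program, its strand setting and its handling of reads with several hits are not given in the sources used here, so genes with close copies or antisense partners may share reads. The libraries held 10176660 to 18789555 counts. Genes that the authors added to the annotation were not eligible as members.

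The members and lists were chosen with earlier results of these data known. FPKM served for the selection, levels and overlap. Each comparison was fitted on the counts of all genes in its 6 libraries with edgeR 4.0.16 in R 4.3.3 (quasi-likelihood test, robust, TMM, filterByExpr, Benjamini-Hochberg adjusted p under 0.05), and the cultivar difference as an interaction in 12 libraries. Standard errors are the log2 fold change over the square root of F. The scripts were tested on simulated data. As alternatives, no filter was used, size factors were median ratios, 1 fit held all 36 libraries, replicate numbers formed a block, DESeq2 1.42.0 replaced edgeR, and each library was left out, and for the selection a pseudocount of 0.1, medians, TMM-rescaled FPKM and no libraries labelled AT3 and AT3H1. Named are the 10 highest scores, the 5 highest means outside the cold, up to 2 called members per direction and comparison with the largest change, every member of a count of at most 5, and the 3 genes on each side of the limit. P-values set the difference between groups against the spread between the 3 libraries within groups, moderated over all genes of the fit. In the fit of all 36 libraries this spread came from all 12 groups.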

Additional observations from a re-analysis of the deposited data

Results flagged for a closer look

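With 3 libraries per group no library was tested as an outlier. Among the named members, the recovery libraries of BGIOSGA018410 and BGIOSGA032434 lay all above every control library in one group and all below every control library in another. These differences are in log2(FPKM + 1) and were not tested. For BGIOSGA018410 the change of AT1H1 from ACK exceeded that of BT1H1 from BCK by 2.01. In the same member the change of BT1H1 from BCK minus that of BT3H1 from BCK was -0.86, and both share the BCK libraries. For BGIOSGA032434 the change of BT3H1 from BCK exceeded that of BT3H3 from BCK by 1.18. After TMM scaling of the counts the log2 fold change of BGIOSGA032434 in BT3H1 was -0.02, so its direction there depended on the scale.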

How the results depend on the processing

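No log2 fold change of a named called member changed sign under an alternative. The median over all members turned to -0.13 in BT3 against BT1 without BT3 replicate 1, to -0.04 in BT1H1 without BT1H1 replicate 3, to -0.04 in BCK against ACK without BCK replicate 1, and to at most 0.09 in the interaction without 1 of 5 libraries. With DESeq2 the members called numbered 13 in BT3 against BT1 (8.78%, against 25.2% of all genes), 28 in BT3H1 (18.7% against 21.5%), 19 in BT1H1 (12.7% against 19.3%) and 24 in BT1H3 (16.0% against 20.2%) against BCK, 14 in AT1H1 against ACK (9.33% against 13.2%) and 53 in BT3H3 against BT3H1 (35.3% against 17.7%). With all 36 libraries in 1 fit they numbered 15 in BT3 against BT1, 5 in BT1H1, 5 in BT1H3, 4 in AT1H1 and 3 in BT3H3 against BT3H1, where 20.4%, 17.1%, 12.3%, 5.17% and 1.41% of all genes were called. Without a filter 1 was called in BT1H3 (0.667% against 0.0814%). Correlations of same-numbered libraries ran from -0.58 to 0.35 and no comparison had all above 0.1, and the main fits used no pairing. With 3 libraries per group these correlations cannot show whether same-numbered libraries were handled together. With the replicate number as a block 0 members were called in BT3 against BT1, where 1.08% of all genes were. In BT3H1 and BT3H3 against BCK and in BT3H3 against BT3H1 it called 0 members and 0 of all genes. Leaving out 1 library gave 0 to 9 member calls in BT3 against BT1 and 0 to 22 in BT3H3 against BT3H1. Against BCK it gave 0 to 0 in BT1H1, 0 to 11 in BT1H3, 0 to 10 in BT3H1 and 0 to 27 in BT3H3. In AT1H1 it gave 0 to 20, and in BCK against ACK and the interaction 0 to 0. In the fits with the most calls, BT3 against BT1 had 6.72% of the members tested, against 23.0% of all genes. BT3H3 against BT3H1 had 14.7% against 5.30%. BT1H3, BT3H1, BT3H3 and AT1H1 had 7.33%, 6.67%, 18.0% and 13.3%, against 13.3%, 6.71%, 17.2% and 22.7% of all genes. The selection shared 106 to 132 members without a replicate and 96 without the libraries labelled AT3 and AT3H1, and the members without overlap then numbered 90 to 145 without a replicate. Of the log2 fold changes of named called members under the alternatives, 159 stayed past the threshold and 182 did not. Of the scores of all named genes under the alternatives, 196 moved by no more than the spread over left-out replicates and 60 by more. The 3 genes just outside the limit are included, and so are the left-out replicates that give this spread. The cause of these changes was not tested.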
